A study of Mus musculus with 18 samples.

Results

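The liver transcriptomes compared here were those of 12 mice on a high-fat diet (HFD) and 6 mice without it, which together are all 18 livers of the series. Livers were placed on either side by the treatment in their labels. The mice were of the outbred ICR stock and 10 weeks old by their labels, and the study used males. The regular-diet side held 3 control livers (Con) and 3 livers of mice given alginate oligosaccharide (AOS) at 10 mg/kg. The label of the AOS group names no diet, and it was counted as regular because the high-fat diet is not in it. The HFD side held 3 livers each of 4 groups: HFD alone, HFD with AOS at 10 mg/kg (HFD+AOS), and HFD with a fecal microbiota transplant (FMT) from control donors (Con-FMT) or from donors dosed with AOS at 10 mg/kg (A10-FMT). Transplanted material came from pooled donor gut contents, so the 3 recipients of a transplant group shared an inoculum. Nothing in the labels says whether the livers of a group came from separate cages or litters, and p-values measure the spread between these livers.

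The values were RPKM, reads scaled to gene length and library size, and fold changes are differences of log2(RPKM + 1), which understate the change of low genes. Each liver's RPKM summed to between 692303 and 806937, with 14512 to 14982 genes above 0. The summed level of 12 hepatocyte markers lay between 53071 and 69257 RPKM in regular-diet livers and between 62109 and 77887 in HFD livers. Con 1, which was kept in the tests, had the highest of these sums. It also had the largest share in its top 10 genes (39.0%) and the lowest median log2(RPKM + 1) over the tested genes (2.89). A pair of libraries stood apart in another way, both on the regular diet. Con 3 lay between Con 1 and Con 2 for 97.8% of the 184 genes that differed at least by a log2 of 1 between these, and AOS 3 lay between AOS 1 and AOS 2 for 96.9% of 159 genes, against 52.2% to 70.5% in the 12 HFD livers. A weighted mean of Con 1 and Con 2 came within a median log2 of 0.0717 of Con 3, and one of AOS 1 and AOS 2 within 0.0874 of AOS 3, against 0.361 to 0.672 for HFD livers treated alike. Con 3 and AOS 3 were therefore left out of the tests, which rest on 16 livers, 4 of them on the regular diet. They are kept in the ranges of levels. Fits with all 18 livers, given below as alternatives, count them as independent, so the p-values of those fits can be too small.

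The liver turns surplus sugar into fatty acids through de novo lipogenesis, and burns fatty acids in mitochondria and peroxisomes or turns them into ketone bodies. Dietary fat supplies ready-made fatty acids, which lower the need for synthesis and, through the nuclear receptor PPARα, raise the genes of oxidation. Hepatocytes also clear drugs, bile acids and retinoids with cytochromes P450, a group of enzymes under nuclear receptors that sense foreign compounds and bile acids.

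Of 10507 genes that reached 1 RPKM in 3 or more livers, 470 (4.47%) changed between the diets at an adjusted p under 0.05 (limma, Benjamini-Hochberg), 280 of them higher (2.66%) and 190 lower (1.81%) in HFD. A change was counted as common to the 4 HFD groups when each group also differed from the regular-diet livers in the same direction at an unadjusted p under 0.05. There were 161 such genes (1.53%), 100 higher (0.952%) and 61 lower (0.581%), and these are the genes the description turns on. At an unadjusted p under 0.05 the diets differed in 19.9% of genes. The median size of a common change was a log2 of 0.44 among the higher and 0.65 among the lower genes. Scd1 fell most (log2 fold change -3.26) and Cib3 rose most (1.6). For 60 of the 161 genes the 12 HFD livers did not overlap the 6 regular-diet livers. The rule that chose the 161 genes used these livers and itself favours such a gap. Among all genes tested, 66 (0.628%) had no overlap, 41 of them above (0.39%) and 25 below (0.238%). With an adjusted p under 0.05 asked of each of the 4 HFD groups, 1 gene was left (0.00952%), Adam11. Taken singly against the regular-diet livers, HFD alone had 1 of the 10507 genes called at that threshold. HFD+AOS had 755, Con-FMT 52 and A10-FMT 604.

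**Figure D1:**
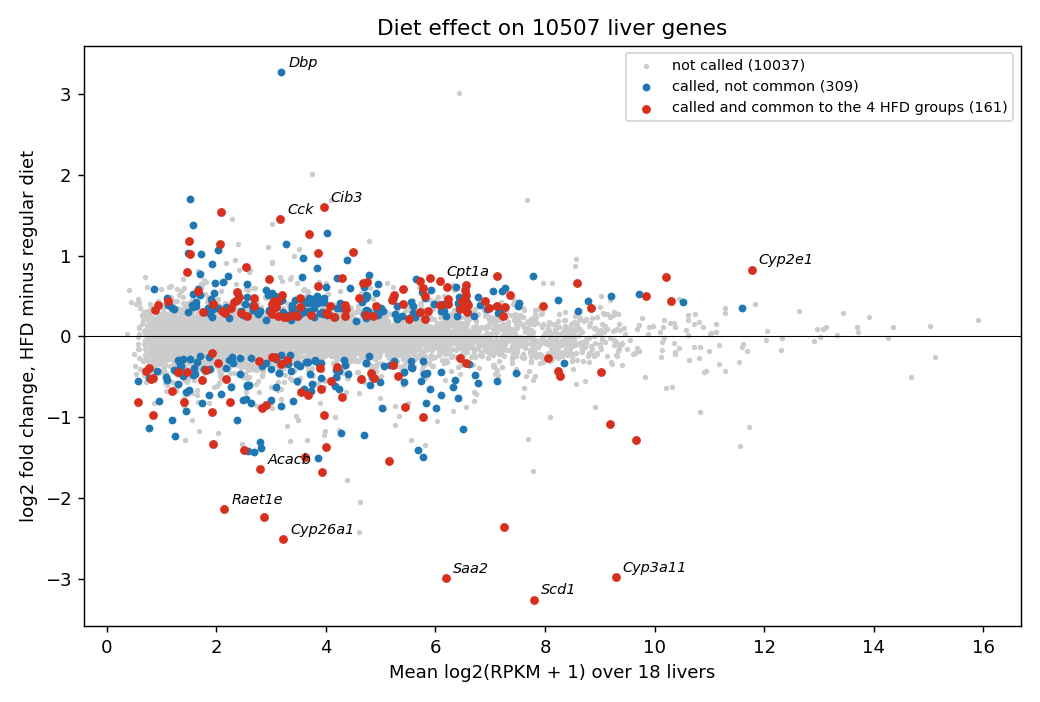
Each point is 1 of the 10507 genes tested, with its mean log2(RPKM + 1) over 18 livers on the x axis and its log2 fold change, HFD minus regular diet, on the y axis. Red points are the 161 common genes, blue points the 309 genes called but not common, and grey points the genes not called. The lower side reaches further for the common genes, to -3.26 for Scd1, than the higher side, to 1.6 for Cib3, and Dbp at 3.27 is called but not common.

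The counts hung on the few regular-diet livers. Leaving out a single liver gave between 130 called genes (without AOS 2) and 649 (without Con 2), with 145 without Con 1 and 229 without AOS 1. The number of common genes went from 70 without Con 1 and 82 without AOS 2 to 331 without Con 2, with 105 without AOS 1. With all 18 livers, 1355 genes were called, 752 higher (7.16%) and 603 lower (5.74%), and 291 were common. When the livers were fitted as 2 groups in place of 6 group means, 110 genes were called, 109 of them among the 161. Counts in the gene lists below are to be read against the shares of all genes, 2.66% higher and 1.81% lower. Those of a fit without 1 liver are to be read against the total of that fit. Without 1 HFD liver, the totals lay between 342 (without Con-FMT 1) and 545 (without A10-FMT 3), with 450 without HFD 2 and 474 without HFD 3. The totals of fits without 1 liver count both directions together.

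Of 24 genes of fatty acid synthesis, 8 fell and 0 rose, 6 of them in common, and 21 had a negative log2 fold change. The median of the list was -0.49 (-0.31 without Con 2) against 0.007 for all genes. Scd1, the desaturase that makes oleate, went from 676 to 2033 RPKM (median 855) in regular-diet livers to between 19.3 and 538 (median 131) in HFD livers. The highest HFD liver, one of HFD+AOS, stayed below the lowest regular-diet liver. The change of Scd1 was -3.26 (standard error 0.71, adjusted p = 0.0226 from limma), and the 4 HFD groups had changes of -3.44 in HFD, -2.32 in HFD+AOS, -3.70 in Con-FMT and -3.58 in A10-FMT (adjusted p = 0.727 for a difference among them). Scd1 lies on chr19:44394450-44407709 (GRCm38.p6). Acacb, the acetyl-CoA carboxylase whose product holds back the entry of fatty acids into mitochondria, ranged from 9.94 to 16.8 RPKM on the regular diet and from 1.32 to 9.92 on HFD, with no overlap. It fell by 1.64 on the log2 scale (standard error 0.34, adjusted p = 0.0166 from limma). Me1, the malic enzyme that supplies NADPH to synthesis, fell by 1.00 (adjusted p = 0.0260 from limma), from 60.8 to 139 RPKM (median 79.6) to 26.9 to 67.9 (median 41.0), ranges that overlapped. Pnpla3, a lipid droplet protein switched on with lipogenesis, fell by 0.98 (adjusted p = 0.0300 from limma) at low levels, with a median of 1.76 RPKM on the regular diet and 0.380 on HFD. The 12 HFD livers of Scd1 spread widely, as the plot of single livers shows. With 1 regular-diet liver left out, the list had 4 lower genes without Con 1, 1 without Con 2, 0 without AOS 1 and 2 without AOS 2, and it had 4 without HFD+AOS 1 or without Con-FMT 1. Scd1 then had adjusted p values of 0.0827 without Con 1, 0.0924 without AOS 1 and 0.0647 without AOS 2, and its log2 fold change stayed between -3.56 and -2.97 in all 16 fits without 1 liver. Acacb was not called without Con 2, AOS 1 or AOS 2 (adjusted p = 0.0521, 0.0677 and 0.0675), nor Me1 without Con 1, Con 2 or AOS 1 (0.0761, 0.0648 and 0.117).

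**Figure D2:**
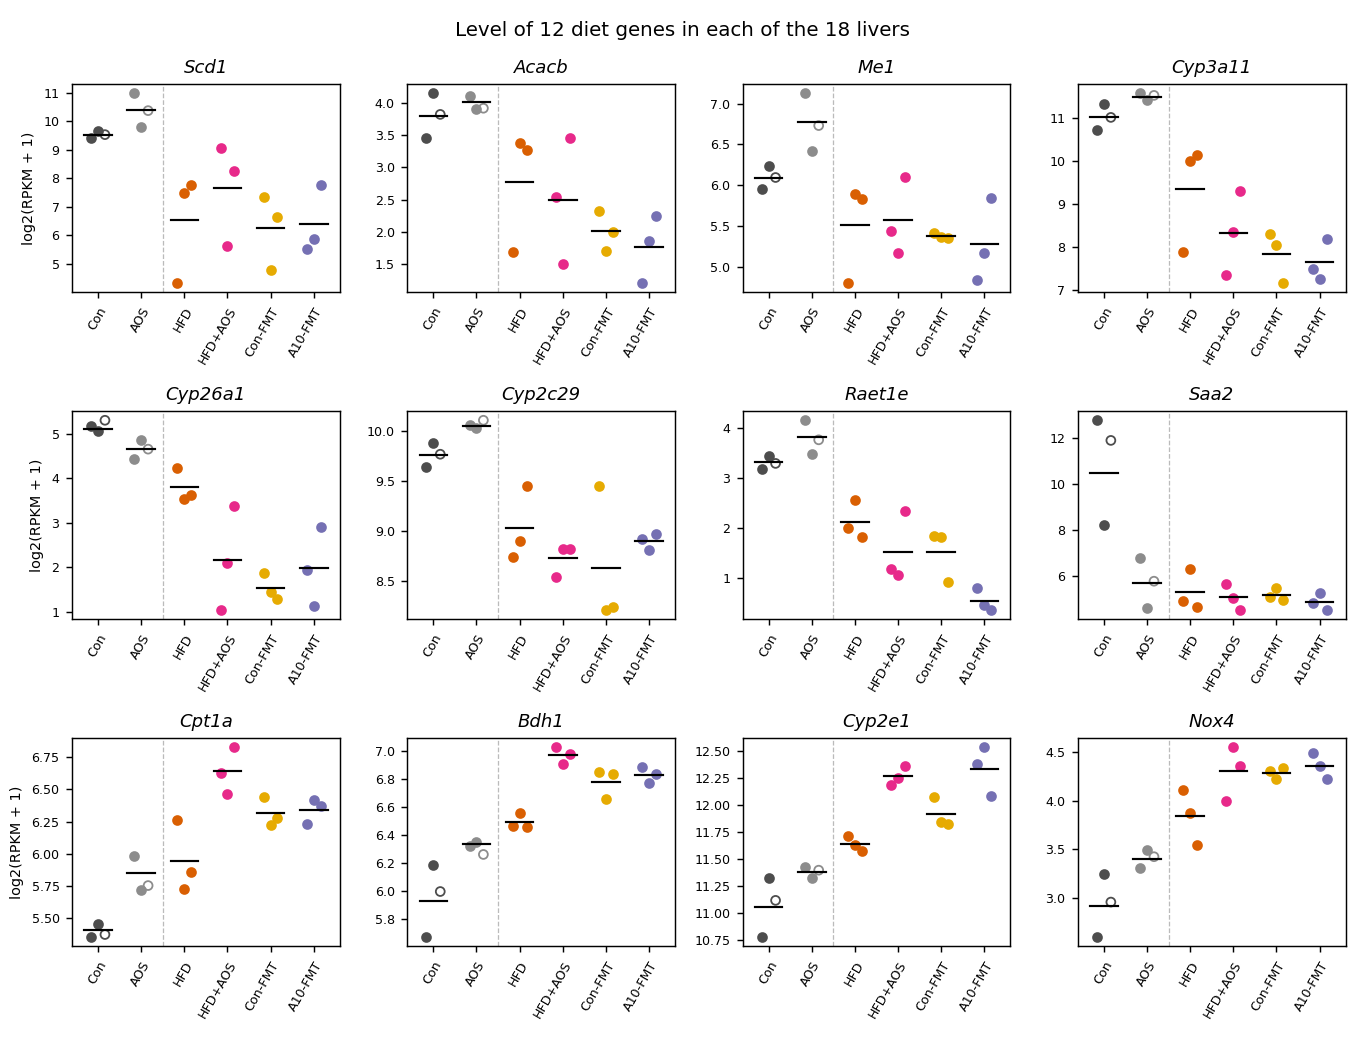
Each panel shows the log2(RPKM + 1) of a gene in the 18 livers, 3 to a group, with a bar for the group's mean. Open circles are Con 3 and AOS 3, which are left out of the means and the tests, and the dashed line parts the regular-diet groups from the 4 HFD groups. Scd1, Acacb, Cyp3a11, Cyp26a1, Cyp2c29 and Raet1e are lower and Bdh1, Cyp2e1 and Nox4 higher in every HFD liver than in every regular-diet liver, while Me1 and Cpt1a overlap and Saa2 stands high in Con.

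Fatty acid oxidation moved the other way, by smaller amounts and in many genes at once. Of 31 genes of mitochondrial oxidation, 11 rose and 0 fell, 7 of them in common, and 30 of the 31 had a positive log2 fold change (median 0.25, or 0.13 without Con 1 and 0.38 without Con 2). Cpt1a, the carnitine palmitoyltransferase through which fatty acids enter mitochondria, had 39.9 to 62.3 RPKM (median 47.3) on the regular diet and 52.0 to 112 (median 79.3) on HFD, and rose by 0.68 (standard error 0.10, adjusted p = 0.00192 from limma). Its change was 0.32 in HFD, 1.01 in HFD+AOS, 0.68 in Con-FMT and 0.71 in A10-FMT. Acad10, an acyl-CoA dehydrogenase, rose by 0.62 (adjusted p = 0.00138 from limma), and its 12 HFD livers (12.7 to 18.7 RPKM) all lay above the regular-diet livers (8.66 to 11.3). Hadhb, the thiolase subunit of the trifunctional protein, rose by 0.45 (adjusted p = 0.00225 from limma), from 58.7 to 87.5 RPKM to 94.6 to 119, again without overlap. Eci2, an enoyl-CoA isomerase for unsaturated fatty acids, rose by 0.52 (adjusted p = 0.00164 from limma). These 4 genes kept their call in each of the 16 fits that left out 1 liver. The number of genes in the list that rose was 4 without Con 1, 5 without AOS 1, 5 without AOS 2 and 19 without Con 2.

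Ketone body synthesis rose in 4 of 7 genes, 2 of them in common (median 0.35). Bdh1, which makes β-hydroxybutyrate from acetoacetate, had 49.9 to 80.5 RPKM on the regular diet and 86.7 to 129 on HFD, and rose by 0.64 (standard error 0.08, adjusted p = 0.00112 from limma). Acat1, which makes the acetoacetyl-CoA at the start of the pathway, rose by 0.60 (adjusted p = 0.0208 from limma), with levels that overlapped between the diets, at 70.8 to 141 RPKM and 128 to 205. The call of Bdh1 held in all 16 fits without 1 liver, and that of Acat1 was lost without Con 1, AOS 1 or AOS 2, with a change of 0.36 without Con 1. The list had 1 gene that rose without Con 1, 2 without AOS 1 and 1 without AOS 2.

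In peroxisomes, 5 of 30 genes rose and 1 fell, with 3 rises in common and a list median of 0.19, or 0.12 without Con 1. Slc27a2, the synthetase that activates very long chain fatty acids, had 237 to 333 RPKM (median 286) on the regular diet and 320 to 530 (median 468) on HFD, and rose by 0.66 (standard error 0.08, adjusted p = 0.00124 from limma). Phyh, which starts the breakdown of branched phytanic acid, rose by 0.44 (adjusted p = 0.00526 from limma) with HFD livers (1217 to 1618 RPKM) wholly above the regular-diet livers (919 to 1095). Acot12, an acetyl-CoA hydrolase, rose by 0.52 (adjusted p = 0.00817 from limma), but not without Con 1 (adjusted p = 0.0564) or AOS 2 (0.0574). Of the list, 2 genes rose without Con 1, 3 without AOS 1, 2 without AOS 2 and 9 without Con 2. The gene that fell was Hacl1, a lyase of branched fatty acids (-0.58, adjusted p = 0.0367 from limma), and in 9 of the 16 fits 0 genes of the list fell.

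Among 26 genes of a list made of PPARα and its other targets, 8 rose, 3 of them in common, and 1 fell, Pdk4, the kinase that shuts off pyruvate oxidation (-0.69, adjusted p = 0.0409 from limma). The receptor gene Ppara rose by 0.61 (adjusted p = 0.00749 from limma), but not alike in the 4 HFD groups, where its change was 0.14 in HFD, 1.01 in HFD+AOS, 0.58 in Con-FMT and 0.73 in A10-FMT (adjusted p = 0.0266 for a difference among them). Slc22a5, the carnitine transporter, rose by 0.38 in common (adjusted p = 0.0135 from limma). Aqp9, the glycerol channel, rose by 0.34 and Slc25a47, a mitochondrial carrier of liver, by 0.57, both with differences among the HFD groups (adjusted p = 0.00854 and 0.0175). Of this list, 2 genes rose without Con 1, 3 without AOS 1, 2 without AOS 2 and 5 without Con-FMT 1, and Pdk4 was not called in 11 of the 16 fits without 1 liver. In the hydroxylation of fatty acids by microsomal enzymes, 2 of 15 genes rose, Cyp4f15 (0.40, adjusted p = 0.0349 from limma) and Aldh3a2 (0.47, adjusted p = 0.0499 from limma), and Cyp4a12b fell by 1.43 (adjusted p = 0.0422 from limma), 0 of them in common. These calls were lost in 10, 14 and 12 of the 16 fits without 1 liver.

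**Figure D3:**
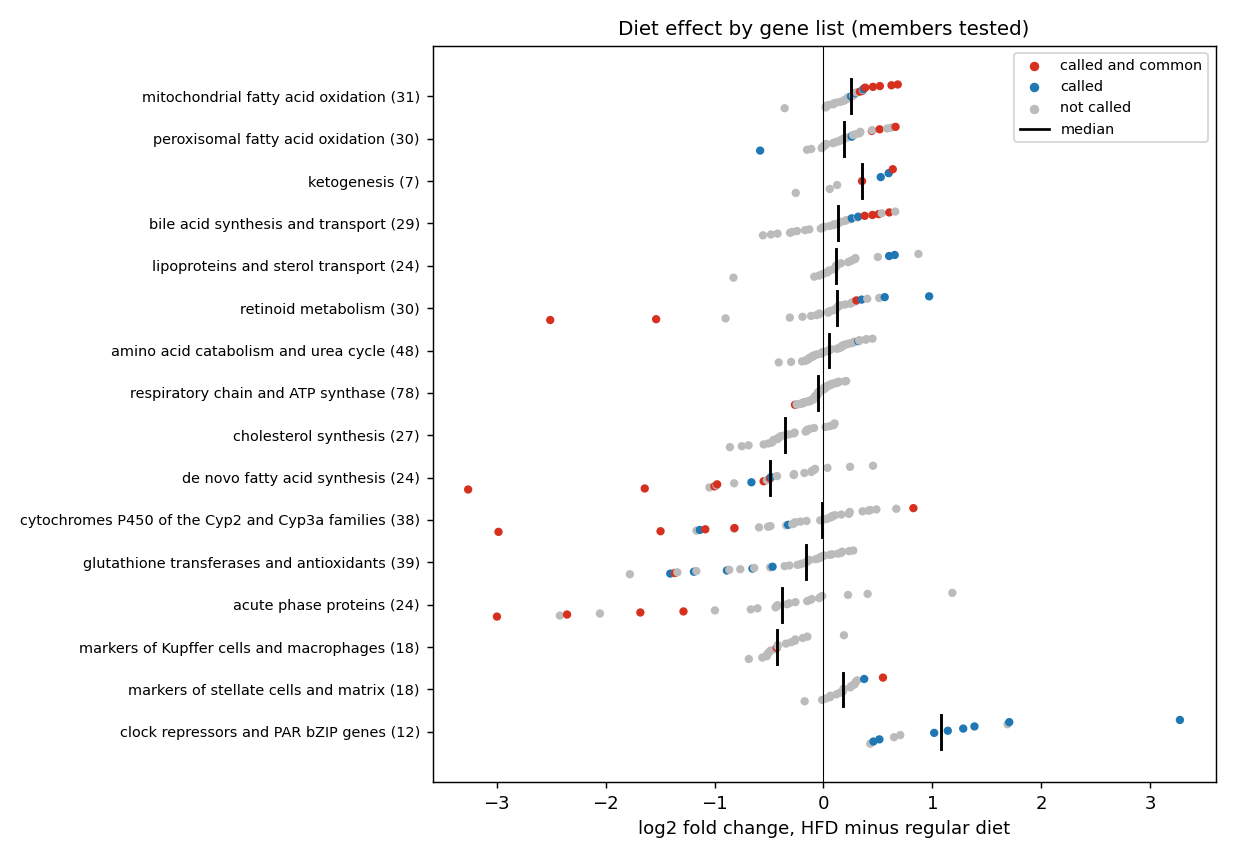
Each row is a gene list with the number of members tested, and each point a member with its log2 fold change, HFD minus regular diet. Red members are common to the 4 HFD groups, blue ones called but not common, grey ones not called, and the black bar is the list's median. The 31 genes of mitochondrial fatty acid oxidation lie right of 0 but for 1, and the 24 genes of fatty acid synthesis spread to the left as far as -3.26.

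Several P450 genes fell steeply. Of 38 genes of the Cyp2 and Cyp3a families, 6 fell and 1 rose, with 4 and 1 in common, and the median of the list was -0.02 (0.05 without Con 2). Cyp3a11, a main drug-metabolizing P450 of mouse liver, had 1710 to 3085 RPKM (median 2672) on the regular diet and 143 to 1134 (median 277) on HFD, with every HFD liver below every regular-diet liver. It fell by 2.98 (standard error 0.40, adjusted p = 0.00155 from limma), by 1.93 in HFD, 2.94 in HFD+AOS, 3.44 in Con-FMT and 3.63 in A10-FMT. Cyp3a11 lies on chr5:145854607-145879854 (GRCm38.p6). Its relative Cyp3a59 fell by 1.495 (adjusted p = 0.0165 from limma), and reads of such near-identical genes could have counted for more than 1 of them. Cyp2c29 fell by 1.08 (adjusted p = 0.00741 from limma), from 794 to 1103 RPKM to 294 to 698, and Cyp2c55 by 0.82 (adjusted p = 0.00133 from limma), at 0.600 to 1.53 RPKM and 0.05 to 0.590, neither with overlap. Both make epoxides from arachidonic acid. Cyp2e1, which oxidizes ethanol and ketones, went the opposite way, from 1755 to 2750 RPKM to 3044 to 5937, and rose by 0.83 (standard error 0.11, adjusted p = 0.00124 from limma). The calls of Cyp3a11, Cyp2c29, Cyp2c55 and Cyp2e1 held in all 16 fits without 1 liver. Of the list, 3 genes fell without Con 1 and 3 without AOS 1, and 3 rose without Con 2.

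Among 39 glutathione transferases and antioxidant genes, 6 fell and 0 rose. Gstt3 alone was common, with 23.0 to 52.8 RPKM on the regular diet and 6.49 to 19.0 on HFD (log2 fold change -1.36, adjusted p = 0.0175 from limma). Gstm3 fell by 1.41 (adjusted p = 0.0176 from limma) and Gsta2 by 1.19 (adjusted p = 0.0337 from limma). The number that fell was 1 without Con 1, 0 without AOS 1, 1 without AOS 2, 3 without HFD+AOS 2 or A10-FMT 2, and 2 without Con-FMT 1.

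Retinoid genes changed in both directions. Of 30 genes, 4 rose and 2 fell, with 1 and 2 in common, against 2.66% higher and 1.81% lower among all genes. Cyp26a1, the P450 that breaks down retinoic acid, had 20.6 to 38.4 RPKM (median 30.1) on the regular diet and 1.06 to 17.9 (median 3.02) on HFD, without overlap, and fell by 2.51 (standard error 0.35, adjusted p = 0.00191 from limma). The fall was smallest in HFD alone (-1.09), against -2.71 in HFD+AOS, -3.34 in Con-FMT and -2.89 in A10-FMT, and the test among these groups gave an adjusted p of 0.0620. Aldh1a7, an aldehyde dehydrogenase related to those that oxidize retinal, fell by 1.54 (adjusted p = 0.00355 from limma), from 61.1 to 88.0 RPKM to 11.01 to 54.0. Rdh9, a retinol dehydrogenase, rose by 0.97 (adjusted p = 0.00809 from limma), by 0.30 in HFD and 1.62 in HFD+AOS, and Dhrs4, a retinal reductase, rose by 0.30 in common (adjusted p = 0.0214 from limma). Rbp4, which carries retinol in blood, rose by 0.35 (adjusted p = 0.0306 from limma) but by 0.09 in HFD alone. Dhrs9, a further retinol dehydrogenase, was too low to be tested. The falls of Cyp26a1 and Aldh1a7 held in all 16 fits without 1 liver, whereas 0 of the list's genes rose without Con 1 or AOS 2 and 1 without AOS 1, and 4 fell without A10-FMT 3.

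The acute phase list, made of secreted proteins that the liver raises in inflammation, had 4 of 24 genes lower and 0 higher, all 4 in common. Saa2, a serum amyloid, had 7018 RPKM in Con 1, 300.04 in Con 2 and 3826 in Con 3, and 110 in AOS 1, 23.7 in AOS 2 and 54.0 in AOS 3. The 12 HFD livers lay between 22.2 and 77.97. The Con livers were thus high and the AOS livers were within or near the range of HFD, so that the change of -2.997 (adjusted p = 0.0154 from limma, standard error 0.61) came to -5.21 between HFD and Con and to -0.63 between HFD+AOS and AOS. Saa1 (-2.35, adjusted p = 0.0447 from limma) and Saa3 (-1.68, adjusted p = 0.0492 from limma) had the same order, with -3.96 and -3.16 between HFD and Con and -0.76 and -0.23 between HFD+AOS and AOS. Both calls were lost in 14 of the 16 fits without 1 liver, and the change of Saa3 was -0.71 without Con 1 and -2.65 without Con 2. Saa1 and Saa2 are near-identical genes whose reads may have been shared. Orm1, an acid glycoprotein, fell by 1.28 (adjusted p = 0.0113 from limma), and by nearly equal amounts against Con (-1.25) and AOS (-1.10). Without Con 1 the change of Saa2 was -1.86 (adjusted p = 0.0541) and that of Saa1 -1.24 (0.192), and 1 gene of the list fell. This number was 15 without Con 2, 7 without HFD 2, 0 without AOS 1, 1 without AOS 2 and 2 in most fits without another HFD liver. Fitted as 2 groups, the adjusted p of Saa1, Saa2 and Saa3 lay between 0.102 and 0.168.

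Markers of Kupffer cells and macrophages were measured beside the acute phase genes. Of 18 tested, 17 had a negative log2 fold change (median -0.42) and 1 was called, Cd163 (-0.43, adjusted p = 0.0372 from limma). Their summed level was 211 to 334 RPKM (median 293) on the regular diet and 155 to 313 (median 201) on HFD. Clec4f, C1qb and Vsig4, which define these cells, were not called (log2 fold changes -0.51, -0.56 and -0.52, adjusted p = 0.0919, 0.0976 and 0.1201 from limma), but were with all 18 livers (0.0122, 0.0161 and 0.0216) or without HFD 3 (0.0115, 0.0164 and 0.00492). Of the list, 11 genes were lower with all 18 livers, 8 without HFD 3, 2 without Con 2, and 0 without Con 1, AOS 1 or AOS 2. The fit of 18 livers counts Con 3 and AOS 3 as independent, so its p-values can be too small. Fewer cells of a type and less RNA per cell cannot be told apart in pieces of liver, and the part of these cells in the other changes was not tested.

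Of the 161 common genes, 116 were in none of the gene lists. The pair Raet1d and Raet1e, ligands of the NKG2D receptor of natural killer cells, were among the deepest falls. Raet1e had 8.13 to 16.9 RPKM on the regular diet and 0.290 to 4.92 on HFD, and fell by 2.14 (standard error 0.24, adjusted p = 0.000678 from limma), most in A10-FMT (-3.03) and least in HFD (-1.44). Raet1d fell by 2.24 (adjusted p = 0.00368 from limma), from 16.01 to 31.1 RPKM to 0.970 to 12.7, and both genes lie on chromosome 10 and are close in sequence. Adam11, a membrane protein of the metalloprotease family without protease activity, was low in every HFD liver. Its levels were 11.3, 8.94 and 10.6 RPKM in Con and 11.1, 8.22 and 9.28 in AOS. All 12 HFD livers lay between 1.87 and 4.72. It fell by 1.40 (standard error 0.14, adjusted p = 0.000329 from limma), and by 1.42 in HFD, 1.28 in HFD+AOS, 1.78 in Con-FMT and 1.15 in A10-FMT. Ptgds, which makes prostaglandin D2, fell by 1.33 (adjusted p = 0.00105 from limma), from a median of 6.52 RPKM to 1.82. All 4 calls held in the 16 fits without 1 liver.

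The genes that rose most had varied roles. Cib3, a calcium-binding protein, had 3.81 to 9.23 RPKM on the regular diet and 9.88 to 42.0 on HFD, and rose by 1.6 (standard error 0.28, adjusted p = 0.00678 from limma). Dnaic1, a dynein chain of cilia, rose by 1.54 (adjusted p = 0.00803 from limma) and Cck, the hormone cholecystokinin, by 1.46 (adjusted p = 0.00783 from limma). Cck had 1.35 to 7.55 RPKM on the regular diet and 5.51 to 26.4 on HFD, with its largest change in Con-FMT (2.32). Bcl6, a transcriptional repressor, had 4.68 to 7.85 RPKM on the regular diet and 8.24 to 33.1 on HFD, and rose by 1.26 (adjusted p = 0.0216 from limma). Nox4, an NADPH oxidase that makes hydrogen peroxide, rose by 1.03 (standard error 0.13, adjusted p = 0.00112 from limma), with 5.07 to 10.2 RPKM on the regular diet and 10.7 to 22.4 on HFD. Enpp2, the secreted enzyme autotaxin, rose by 1.05 (adjusted p = 0.00124 from limma), from a median of 13.3 to 30.5 RPKM. Gpc1, a heparan sulfate proteoglycan, rose by 1.14 (adjusted p = 0.00301 from limma). The calls of Dnaic1, Nox4, Enpp2 and Gpc1 held in all 16 fits without 1 liver. That of Cib3 did not without Con 1 (adjusted p = 0.0526), that of Cck without Con 1 (0.0602) or AOS 2 (0.0574), and that of Bcl6 without Con 1 (0.108), AOS 1 (0.0899) or AOS 2 (0.0632).

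Genes known from lymphocytes were among the rises, at low levels. Stap1, an adaptor of B cell signalling, rose by 1.19, from a median of 0.585 to 2.89 RPKM, Nuggc, a GTPase of germinal centres, by 1.02, from 0.850 to 2.44, and Zap70, the kinase of the T cell receptor, by 0.86, from 2.92 to 6.10. Their adjusted p values were 0.00741, 0.00660 and 0.00660 (limma). For Nuggc and Zap70 the diets did not overlap, and Stap1 was not called without Con 1 (adjusted p = 0.0564). Of 18 lymphocyte markers, 5 were high enough to test and 0 of these were called, with a summed level of 7.04 to 9.08 RPKM on the regular diet and 5.41 to 16.4 on HFD, and Cd3e and Cd3d were among the markers too low to test. The remaining large rises were Mtnr1a, a melatonin receptor (0.80), Herpud1 of protein quality control in the endoplasmic reticulum (0.75), Mug1, a plasma protease inhibitor (0.74), and Slc22a7, an organic anion transporter (0.72), with adjusted p values between 0.00496 and 0.0114 (limma). Mtnr1a was not called without AOS 2 (0.0553), nor Slc22a7 without AOS 1 (0.0679).

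**Figure D4:**
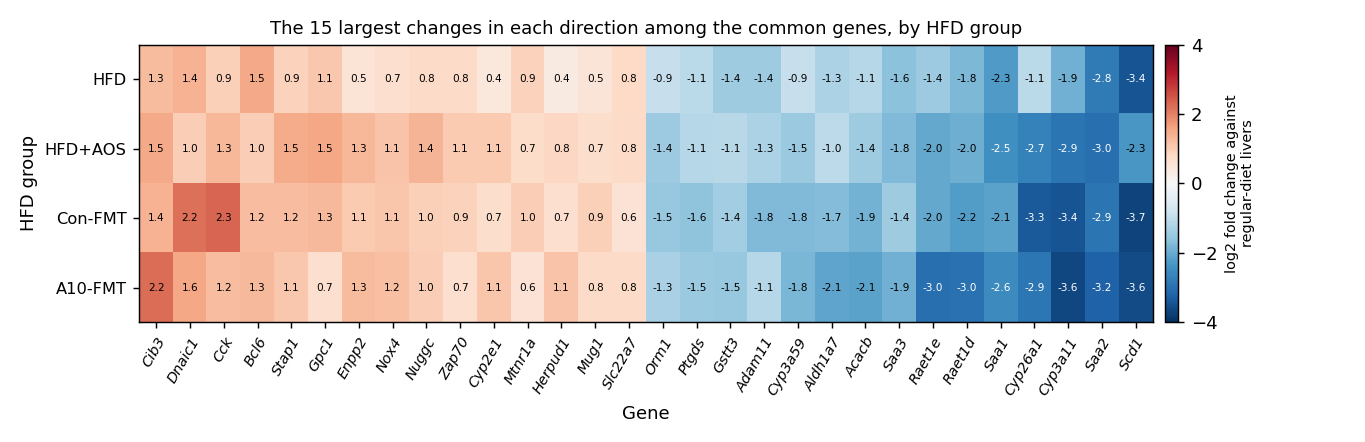
Columns are the 15 common genes with the largest change in each direction and rows the 4 HFD groups. Each cell gives the log2 fold change of the group against the regular-diet livers, which all 4 rows share, so that rows are not independent of each other. Every cell of a gene has the same sign, as the choice of genes required, and the sizes range in Cyp26a1 from -1.09 in HFD to -3.34 in Con-FMT.

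Bile acid genes rose in 6 of 29 cases, against 2.66% of all genes, and fell in 0, with 4 in common. These 4 were Abcb4, the phospholipid exporter into bile (0.60, adjusted p = 0.00860 from limma), Abcc2, the exporter of conjugates (0.45, adjusted p = 0.00860 from limma), Slco1b2, the uptake transporter at the blood side (0.38, adjusted p = 0.00660 from limma), and Akr1c6, a hydroxysteroid dehydrogenase (0.51, adjusted p = 0.00462 from limma). Akr1c6 had 574 to 839 RPKM on the regular diet and 853 to 1172 on HFD. Nr1h4, the bile acid receptor FXR, had 54.4 to 65.5 RPKM on the regular diet and 56.6 to 96.3 on HFD and rose by 0.32 (standard error 0.08, adjusted p = 0.0405 from limma), but not evenly: its change was 0.15 in HFD, 0.53 in HFD+AOS, 0.05 in Con-FMT and 0.54 in A10-FMT. The call of Nr1h4 was lost in 12 of 16 fits without 1 liver, with adjusted p values up to 0.191. Without AOS 2, 3 genes of the list rose, and 1 fell without HFD+AOS 3, Con-FMT 2 or A10-FMT 2.

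In fat storage and uptake, 3 of 32 genes rose and 2 fell, with 2 and 2 in common. Of all genes, 2.66% rose and 1.81% fell, 0.952% and 0.581% in common. Hsd17b11, an enzyme of lipid droplets, rose by 0.57 (adjusted p = 0.00847 from limma) and Fabp2, a fatty acid binding protein, by 0.61 (adjusted p = 0.0175 from limma), both in common. Lpl, the lipase that frees fatty acids from lipoproteins, fell by 0.85 (adjusted p = 0.0108 from limma), from 9.17 to 12.1 RPKM to 2.48 to 7.87, and Abhd5, which activates the fat cell lipase, by 0.29 (adjusted p = 0.0415 from limma). The rises numbered 0 without Con 1 or AOS 2 and 5 without Con 2, and the falls 0 without AOS 2 and 1 in most other fits. Dgat2, the last enzyme of triglyceride synthesis, rose by 0.38 (adjusted p = 0.0363 from limma) but was -0.06 in HFD alone. The sterol exporters Abcg5 and Abcg8 rose by 0.65 and 0.60 (adjusted p = 0.00362 and 0.00803 from limma), and were at 0.04 and 0.01 in HFD against 0.92 and 1.05 in HFD+AOS and 1.11 and 0.90 in A10-FMT. They were the 2 genes called of 24 in lipoprotein and sterol transport, neither in common, and 4 rose without Con 2. Of 13 genes of fatty acid desaturation and elongation outside the synthesis list, Hacd3, a dehydratase of elongation, rose in common (0.30, adjusted p = 0.0142 from limma), with 42.7 to 48.7 RPKM on the regular diet and 50.5 to 64.8 on HFD. The elongases Elovl1 (-0.60, adjusted p = 0.0171 from limma) and Elovl3 (-1.15, adjusted p = 0.0110 from limma) fell, but Elovl3 had 0.40 in HFD against -2.74 in A10-FMT. Without AOS 2, 0 of these 3 were called.

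Cholesterol synthesis had 0 of 27 genes called in either direction with limma, with 4 lower when all 18 livers were used and 2 without A10-FMT 3. In this list 22 genes had a negative log2 fold change (median -0.35), with medians of -0.08 in HFD, -0.15 in HFD+AOS, -0.23 in Con-FMT and -0.74 in A10-FMT, and Tm7sf2, a sterol reductase, had -0.46 (adjusted p = 0.133 from limma). Of 78 genes of the respiratory chain, 1 fell, Ndufa3 (-0.26, adjusted p = 0.0381 from limma), and the median was -0.05 (0.04 without Con 2). That call was lost in 11 of the 16 fits without 1 liver. Of 48 genes of amino acid breakdown and the urea cycle, 1 rose, with 0 without Con 1, AOS 1 or AOS 2 and 6 without Con 2. Of 37 genes of glucose and glycogen metabolism, 2 rose, Ugp2 (0.43) and the glycogen synthase Gys2 (0.72, adjusted p = 0.00526 from limma), and both differed among the HFD groups. Among all genes 2.66% rose. Without Con 2 this list had 5 that rose, and without Con 1 or AOS 2 it had 1. Of 27 genes of chaperones and stress in the endoplasmic reticulum, Herpud1 alone rose, and 2 did without A10-FMT 1 or A10-FMT 2. The list had a median of 0.19 in HFD and 0.16 in Con-FMT but -0.34 in HFD+AOS and -0.32 in A10-FMT.

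Few of the common genes differed by a test among the 4 HFD groups, a pattern that the rule for a common change itself favours. A moderated F test among these groups, in which the regular-diet livers enter only the shared estimate of the spread, called 346 of all genes (3.29%), and 19.8% had an unadjusted p under 0.05. It called 3 of the 161 common genes (1.86%), which were Cyp2e1 (adjusted p = 0.0440), the cholesterol transporter Npc1 and A230050P20Rik, and 126 of all 470 called genes (26.8%). Of the 309 genes called but not common, 273 missed the rule in HFD alone, 91 in Con-FMT, 15 in HFD+AOS and 9 in A10-FMT. The median change of the 100 common higher genes was 0.32 in HFD, 0.51 in HFD+AOS, 0.42 in Con-FMT and 0.45 in A10-FMT, and that of the 61 lower genes was -0.46, -0.67, -0.68 and -0.69.

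The genes that differed most among the HFD groups were those of the circadian clock, in which Arntl and Npas2 drive the repressors and the PAR bZIP factors such as Dbp, and are held back by them in turn. Of 12 repressors and PAR bZIP genes, 8 were called higher in HFD, 0 in common, and 9 differed among the HFD groups. Dbp had 0.660, 0.580 and 0.680 RPKM in Con, 3.41, 0.360 and 1.78 in AOS and 0.560, 0.270 and 0.590 in HFD. It had 112, 88.9 and 97.8 RPKM in HFD+AOS, 127, 70.8 and 49.2 in A10-FMT, and 16.5, 3.24 and 22.6 in Con-FMT. The livers of HFD alone were thus as low as those of the regular diet, those of HFD+AOS and A10-FMT were high, and Con-FMT lay between. Its change against the regular-diet livers was -0.44 in HFD, 5.65 in HFD+AOS, 2.60 in Con-FMT and 5.28 in A10-FMT (adjusted p = 0.000114 for a difference among them). Ciart, a repressor of the clock, had the same order, with -0.18, 2.96, 0.69 and 3.34 (adjusted p = 3.03e-06), and so had Per3, with -0.17, 2.44, 0.84 and 2.43 (adjusted p = 0.000114). Arntl and Npas2 went the opposite way. Arntl had 12.1 to 14.6 RPKM in HFD, 6.94 to 12.97 in Con-FMT, 1.18 to 1.32 in HFD+AOS and 0.690 to 2.41 in A10-FMT (adjusted p = 4.75e-05 for a difference among them), and Npas2 had changes of -0.17, -1.91, -0.91 and -1.93. Chka, a choline kinase, and Wee1, a kinase of the cell cycle, were also among the 5 smallest p values of this test, with changes in HFD+AOS of -2.28 and 1.85 and in HFD of -0.03 and 0.17. The fitting of 2 groups called 0 of the 12 repressors, and 5 were called without Con 1 and without AOS 2.

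**Figure D5:**
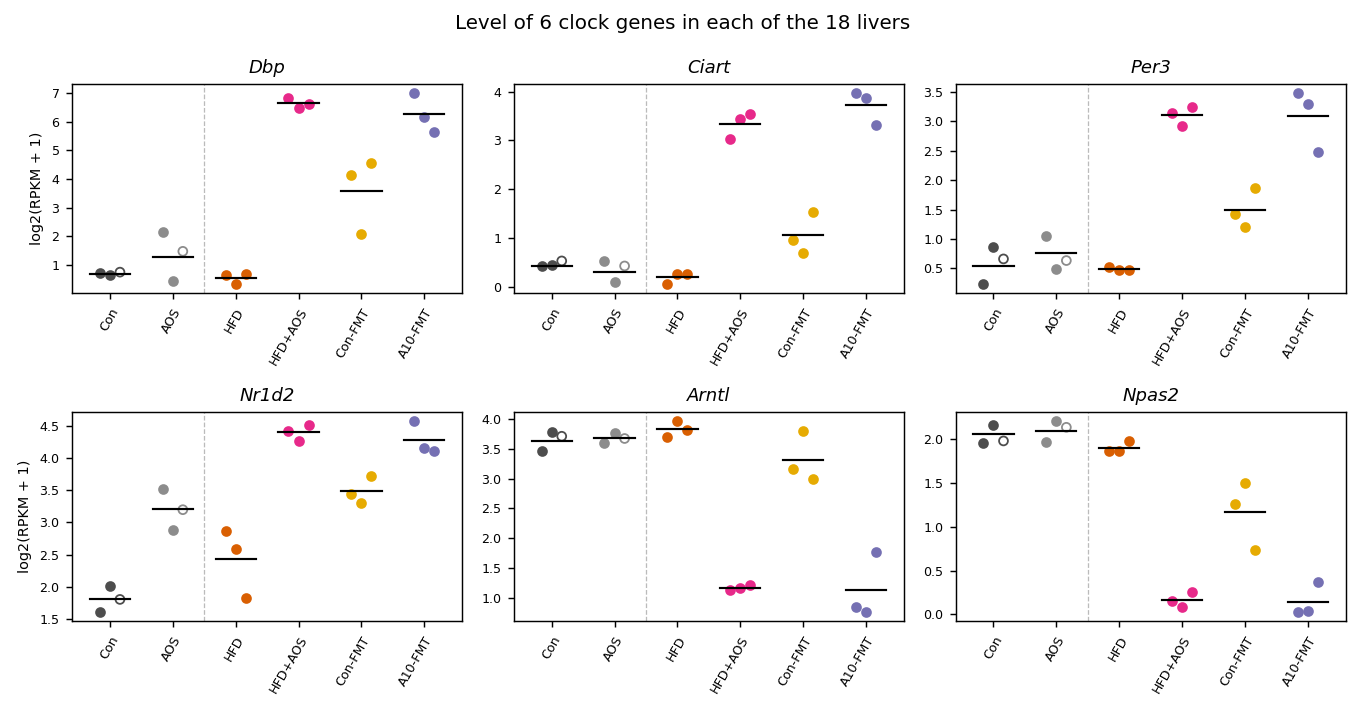
Each panel shows the log2(RPKM + 1) of a clock gene in the 18 livers, with a bar for the group's mean and open circles for Con 3 and AOS 3, which are left out of it. Dbp, Ciart, Per3 and Nr1d2 are high and Arntl and Npas2 low in HFD+AOS and A10-FMT, Con-FMT lies between for Dbp and Nr1d2, and HFD alone lies near the regular-diet groups.

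Because the clock genes moved in HFD+AOS and A10-FMT, and in part in Con-FMT, the diet contrast of all 12 livers carried them. Their part in the other changes was not tested. The Arntl phase genes had a median change of -0.31 in Con-FMT, against -1.47 in HFD+AOS and -1.12 in A10-FMT. In HFD alone the repressors had a median change of -0.08 and the Arntl phase genes one of 0.15, and the mitochondrial oxidation list had one of 0.17 and the synthesis list -0.41 in the same livers. Arntl and its partners act on E-boxes (CACGTG) and the PAR bZIP factors on D-boxes (TTANGTAA). These were searched on both strands in the 250 bases before each annotated transcript start of a gene (RefSeq, GRCm38.p6), and by their letters the 2 motifs cannot overlap each other. Of 8374 tested genes with such a window, 10.1% held in at least 1 window an E-box and 1.80% a D-box. Among genes with a window, an E-box was found in 14.6% of those called higher and 6.67% of those called lower. It was found in 10 of 81 common higher genes (12.3%), 1 of 48 common lower genes (2.08%) and 4 of 11 clock repressors. A D-box was found in 2.65% of genes called higher and 2.67% of genes called lower. The 3 windows below are shown because Ciart has the smallest p among the HFD groups, Per3 is a clock repressor with D-boxes, and Bcl6 is a common gene with an E-box. They are given 5′ to 3′ on the strand of the gene, which is the minus strand for all 3, with the motif in capitals, at chr3:95882229-95882478, chr4:151044666-151044915 and chr16:23988853-23989102.
Ciart: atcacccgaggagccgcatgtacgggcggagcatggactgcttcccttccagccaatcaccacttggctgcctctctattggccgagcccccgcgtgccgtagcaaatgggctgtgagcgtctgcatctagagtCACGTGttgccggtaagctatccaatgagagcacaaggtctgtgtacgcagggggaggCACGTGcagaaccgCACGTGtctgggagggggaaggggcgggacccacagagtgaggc
Per3: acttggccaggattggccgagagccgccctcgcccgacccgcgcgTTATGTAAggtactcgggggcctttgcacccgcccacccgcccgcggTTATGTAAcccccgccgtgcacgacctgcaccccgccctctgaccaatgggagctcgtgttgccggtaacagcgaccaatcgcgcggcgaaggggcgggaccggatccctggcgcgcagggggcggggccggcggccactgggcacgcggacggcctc
Bcl6: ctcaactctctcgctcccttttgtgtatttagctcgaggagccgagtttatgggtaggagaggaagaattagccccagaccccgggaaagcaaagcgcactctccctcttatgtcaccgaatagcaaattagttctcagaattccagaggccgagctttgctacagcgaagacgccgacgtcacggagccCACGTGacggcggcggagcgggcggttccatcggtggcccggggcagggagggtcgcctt
Ciart held 3 E-boxes, the last of them beginning 44 bases before the transcript start that bounds the window, Per3 held 2 D-boxes and Bcl6 1 E-box. A match says that the letters are there, not that a factor bound them in these livers. The transcript starts used here lie a little inside the outermost bounds that RefSeq gives these 3 genes, so each window overlaps the 5′ end of the gene.

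The diets were also compared without and with AOS, in 2 comparisons that share no liver. Between HFD and Con, 0 of 10507 genes were called with limma (1076 at an unadjusted p under 0.05) with Con 3 and AOS 3 left out, and 40 with all 18 livers. Between HFD+AOS and AOS, 161 genes (1.53%) were called. A fit without a further Con or AOS liver leaves 1 liver on the regular-diet side of its comparison, so counts of such fits are not given here. Across all genes tested the 2 fold changes had the same sign for 54.1% (Pearson's r 0.264, Spearman's rho 0.247, across genes, which are not independent replicates). Of the genes called between HFD+AOS and AOS, 113 (70.2%) had the same sign between HFD and Con. Of the 54 called there by a log2 of at least 1, 34 (63%) did. Side by side, Scd1 had -3.01 without AOS and -2.75 with it, Adam11 -1.45 and -1.24, Raet1e -1.19 and -2.30, Cyp3a11 -1.69 and -3.17, Cyp26a1 -1.32 and -2.48, Cpt1a 0.54 and 0.79, and Nox4 0.92 and 0.90. Dbp, by contrast, had -0.14 and 5.35. All of these genes but Dbp are common genes. The rule for a common change asked HFD and HFD+AOS for the same direction against the regular-diet livers, so that choice favoured a shared sign. The difference between such pairs was not tested, and the AOS livers did not differ from Con in any gene at an adjusted p under 0.05 with limma (920, or 8.76%, at an unadjusted p under 0.05, and 14 genes with all 18 livers).

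Markers of the other cell types of liver gave few calls, where 2.66% of all genes were called higher and 1.81% lower. Of 18 stellate cell and matrix genes, 2 rose, Reln (0.55, adjusted p = 0.0250 from limma) and Col1a2 (0.37, adjusted p = 0.0470 from limma), and their summed level was 138 to 183 RPKM on the regular diet and 147 to 218 on HFD. Neither call held without Con 1 or AOS 2. The lists of endothelium, cholangiocytes, neutrophils, red cells, adipose tissue, exocrine pancreas and skeletal muscle had 0 genes called with limma, though 1 endothelial gene was called without Con-FMT 3 and 1 red cell gene without Con 2. Genes with a known bias between the sexes had 2 of 19 male-biased genes lower (Elovl3 and Cyp4a12b, with 0 without Con 1 or AOS 2) and 0 of 8 female-biased genes called.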

How the data were processed

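Liver RNA was sequenced in 18 samples. The deposited values were RPKM per gene, computed by the authors from reads mapped with SOAPaligner according to the study's methods, while the submitters' processing notes name Bowtie 0.12.2 and mm10. Counts were not used here, so the DEGseq test of the methods was not run. The table held 19057 lines, of which 10507 reached an RPKM of 1 in 3 or more livers. Depth per library is not given in RPKM, so its precision was judged from replicates alone.

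From the deposited RPKM, log2(RPKM + 1) was fitted with limma 3.58.1 in R 4.3.3 (6 group means, trended eBayes, two-sided, Benjamini-Hochberg over all genes, threshold 0.05) on 16 livers. The diet effect was the mean of the 4 HFD groups minus the mean of Con and AOS. Con 3 and AOS 3 were left out, and figures were drawn in Python 3.11.15. Simulated data with 200 of 10507 genes changed gave back 98 of 100 at a log2 of 1 and 99 of 100 at a log2 of 2 for the diet effect, with 12 unchanged genes called. The changed genes were drawn from those with a mean log2(RPKM + 1) above 2. Noise was normal and independent, and groups of a diet did not differ. The recovery therefore does not hold for low genes or for smaller changes, and the common changes had medians of 0.44 (higher) and 0.65 (lower).

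The members, lists and tests were chosen with earlier results of these data known. Genes named were up to 15 of the largest common changes each way, up to 4 per list by p, the 5 smallest p among HFD groups of genes that also passed the diet test, and the genes the study names for liver. Hacl1, Pdk4, Abhd5, Npc1 and A230050P20Rik were named after their values were seen, and the E-box and D-box were chosen likewise. Positions and promoters are those of RefSeq on GRCm38.p6, found for 91 of 91 named genes. Some genes that the rule names are not reported here. Alternatives were all 18 livers, library medians set equal, a pseudocount of 0.1, no filter, the replicate number as a block, fold and stricter thresholds, no transplant groups, 2 groups of livers, and each liver left out in turn.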

Additional observations from a re-analysis of the deposited data

Results flagged for a closer look

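Of 91 named genes, 21 differed among the 4 HFD groups by the moderated F test of limma, in which the regular-diet livers enter only the estimate of the spread. Among the clock genes and those that moved like them, the adjusted p values were 3.03e-06 for Ciart and Chka, 4.75e-05 for Arntl, 8.5e-05 for Wee1, 0.000113 for Npas2, 0.000114 for Dbp and Per3, 0.000123 for Elovl3, 0.00013 for Nfil3 and 0.00127 for Nr1d2. Nfil3, a repressor that rivals Dbp for D-boxes, had changes of 0.31 in HFD, -1.37 in HFD+AOS, -0.18 in Con-FMT and -1.20 in A10-FMT. Genes of sterol and glucose handling and transport had 0.000866 for Gys2, 0.00336 for Abcg5, 0.00608 for Abcg8, 0.00854 for Aqp9, 0.0175 for Slc25a47, 0.0176 for Dgat2 and 0.0438 for Ugp2. The others were Ppara at 0.0266, Rdh9 at 0.0279, Nr1h4 at 0.0397 and Cyp2e1 at 0.0440. In all 21, the largest change in size was that of HFD+AOS or A10-FMT.

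In 12 of the 91 genes, 1 of the 4 regular-diet livers in the tests stood apart from the other 3 by Dixon's ratio of gap to range. Chance gives this in about 1 in 20 groups of normal values. The ratio was taken on RPKM, for which that share need not hold, and not on the log2 scale of the tests. Whether these livers stand apart on the log2 scale was not tested. Con 1 stood apart in Saa1 (0.963), Saa2 (0.960), Saa3 (0.957), Hsd17b11 (0.912), Orm1 (0.900) and Acat1 (0.895). Con 2 stood apart in Raet1d (0.898), Stap1 (0.860) and Elovl1 (0.836), and AOS 1 in Gstt3 (0.921), Dbp (0.902) and Scd1 (0.839). Con 1 was the high liver for the acute phase genes and the low one for Hsd17b11 and Acat1, and AOS 1 was the high liver for Scd1, Gstt3 and Dbp.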

How the results depend on the processing

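No named gene that was called turned the sign of its log2 fold change under an alternative run. The diet effect (470 genes) became 1355 with all 18 livers, 146 without the transplant groups, 110 with 2 groups of livers, 48 with a log2 fold change of 1 or more in size, 5 with that and an adjusted p of at most 0.001, and 130 to 649 with 1 liver left out. The diet effect common to the 4 HFD groups (161) became 291 with all 18 livers, 26 and 2 with the fold threshold and the stricter threshold, and 70 to 331 with 1 liver left out. The count for differences among the 4 HFD groups (346) became 657 with all 18 livers, 547 with library medians set equal, 176 without the filter, and 156 to 567 with 1 liver left out. The diet effect without AOS, HFD minus Con (0), became 40 with all 18 livers, 2 without the filter, and 0 to 80 with 1 liver left out, 80 being without Con 2. The diet effect with AOS, HFD+AOS minus AOS (161), became 572 with all 18 livers, 84 without the filter, 54 and 6 with the fold and stricter thresholds, and 29 to 211 with 1 liver left out. With library medians set equal, 694 genes were called by diet, 345 higher and 349 lower, against 280 and 190, so that the higher genes were no longer the majority, and 348 were called without the filter. Of the 470, 469 were called with all 18 livers, 131 without Con 1, 348 without Con 2, 198 without AOS 1 and 122 without AOS 2. Fewer livers enter the last 4 fits, and beyond that the cause was not tested.

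Groups share replicate numbers. Same-numbered livers deviated together (r over 0.1) in 3 of 36 pairs of groups, with r from -0.177 to 0.225. The pairs have livers in common and are not independent, so whether same-numbered livers shared a batch cannot be told from them. With the replicate block, 475 genes were called by diet, 240 higher and 235 lower, 357 of them among the 470. Of 86 named genes called, 39 were called in every fit without 1 liver.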
